A study of Saccharomyces cerevisiae with 10 samples.

Results

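The genes that make the aromatic amino acids phenylalanine, tyrosine and tryptophan were followed in Saccharomyces cerevisiae, with the gene SUA5 deleted or intact. They are 10 genes chosen by symbol: ARO1, ARO2, ARO3, ARO4 and ARO7 of the shikimate pathway and its first branch, and TRP1 to TRP5 of tryptophan synthesis. Of these, 9 were paired with a probe set, 1 each, among the 5449 genes tested. TRP1 was paired with none and was not analysed here.

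The study compared 10 Affymetrix arrays, each of RNA from a culture grown to mid-log phase in rich YPD liquid medium. Strains deleted for SUA5 (labelled sua5D) had mating type a and came from spores of a sua5D/SUA5 heterozygote of the BY4743 diploid. They were sampled at the 12th restreaking on plates, labelled 300 generations after sporulation (3 clones), and at the first restreaking, labelled 35 generations (4 clones). BY4742, a haploid that carries SUA5 and has mating type alpha, served as the wild type (3 clones). Sua5 helps make the modified base threonylcarbamoyladenosine of tRNAs.

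As background, the shikimate pathway starts when Aro3 and Aro4, parallel isoenzymes inhibited by phenylalanine and by tyrosine, join erythrose 4-phosphate and phosphoenolpyruvate. Aro1, a multifunctional protein, and Aro2 then lead to chorismate, where the pathway forks. Aro7 sends chorismate towards phenylalanine and tyrosine, and anthranilate synthase, made of Trp2 and Trp3, sends it towards tryptophan. Many amino acid synthesis genes of yeast are raised together by the activator Gcn4 when amino acids are scarce or its translation is released, while ARO7 and TRP1 have been described as outside this control.

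Some facts of the whole series touch every result. SUA5 read 2.18 to 5.22 at the 12th restreaking and 0.342 to 5.10 at the first, against 506 to 532 in the wild type, in units of linear array intensity. All deletion arrays lay below their background limits, which were 10.8 to 17.5 over the arrays, for this gene. The strains also differed in mating type. The summed intensity of 6 markers of mating type a was 6133 to 6479.97 at the 12th restreaking and 5584 to 7088 at the first, against 267 to 325 in the wild type. The sum of 4 alpha markers was 964 to 1057 at the 12th and 1062 to 1296 at the first, against 18149 to 19019 in the wild type. All 6 were called higher and all 4 lower in both comparisons, and no marker was at 0. Loss of SUA5, mating type and descent from the diploid therefore cannot be told apart in comparisons with the wild type. The median over all probe sets was 89.7 to 104 on the deletion arrays, against 60.6 to 63.96 on the wild-type arrays, and its part in the results was not tested. Among the clones of the first restreaking, LYS2, a lysine synthesis gene, an auxotrophic marker, read 2953 and 2890.0 in replicates 3 and 4, against 15.6 and 9.34 in replicates 1 and 2. LYS2 read 10.8 to 53.7 at the 12th restreaking and 10.9 to 17.4 in the wild type. MET17, a methionine synthesis gene used as an auxotrophic marker, split the clones the same way, with 4898.5 and 4662 in the later-numbered pair and at most 15.3 in the other. It read 8.09 to 96.9 at the 12th restreaking, against 4176 to 4381 in the wild type. The 12th restreaking thus differed from the wild type in MET17 on every array. At the first, replicates 1 and 2 differed from it in MET17, and replicates 3 and 4 in LYS2. In comparisons with the wild type these marker differences likewise cannot be told apart from loss of SUA5. The SD of the log2 difference across all genes was 0.121 to 0.136 within those pairs and 0.217 to 0.236 across them.

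Against the wild type, 8 of the 9 measured genes were higher and 1, ARO7, was lower, both at the 12th and at the first restreaking. The rises ran from 1.13-fold (TRP5) to 2.24-fold (ARO3) at the 12th restreaking and from 1.20-fold to 2.53-fold, for the same genes, at the first. In limma's test, with an adjusted p under 0.05 over all genes as the threshold, 77.8% of all genes were called at the 12th restreaking (40.9% higher and 36.9% lower). At the first restreaking 79% were called (41.5% higher and 37.5% lower). The share of measured members called higher was 88.9% in each comparison. The members' median log2 change was 0.52 at the 12th restreaking and 0.58 at the first, and that of all genes tested was 0.03 in both. Both comparisons use the same 3 wild-type arrays, so they are not independent of each other.

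Of the members, ARO3 rose most. ARO3, the isoenzyme inhibited by phenylalanine, read 5099, 5159 and 5129 at the 12th restreaking and 5873, 6164, 5927 and 5249 at the first, against 2367, 2254 and 2224 in the wild type. Every deletion array was above every wild-type array, and the lowest array of the first restreaking was replicate 4. ARO3 was 2.24-fold higher at the 12th restreaking (log2 change 1.16, SE 0.051, adjusted p = 1.49e-10 by limma) and 2.53-fold higher at the first (1.34, SE 0.048, adjusted p = 1.46e-11). Of all genes tested, 7.25% had a higher log2 change at the 12th restreaking and 6.09% at the first. ARO4, the isoenzyme inhibited by tyrosine, read 4374, 4209 and 4269.9 at the 12th restreaking and 4179, 4460.4, 4393 and 4318 at the first, against 2842, 2898 and 2735 in the wild type. The deletion arrays again lay entirely above the wild type, with little spread among clones. ARO4 rose 1.51-fold at the 12th restreaking (adjusted p = 6.06e-09) and 1.53-fold at the first (adjusted p = 1.84e-09). ARO3 and ARO4 are related in sequence, and cross-hybridisation between their probe sets was not checked.

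The genes for the steps from there to chorismate rose as well. ARO1, whose product carries out the central reactions of the pathway, read 5557, 5426 and 5524 at the 12th restreaking and 5514, 5759, 5742 and 5673 at the first, against 4007, 3741 and 3792 in the wild type. This was a 1.43-fold rise at the 12th restreaking (adjusted p = 1.54e-08 by limma) and a 1.47-fold rise at the first (adjusted p = 2.75e-09). ARO2, encoding chorismate synthase, read 3353, 3225 and 3236.5 at the 12th restreaking and 3183, 3318, 3524 and 3426 at the first, against 2474, 2551.5 and 2528 in the wild type. ARO2 rose 1.30-fold (adjusted p = 1.91e-06) and 1.33-fold (adjusted p = 3.10e-07) at the 12th and the first restreaking. For neither gene did the deletion and wild-type arrays overlap.

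ARO7, encoding the chorismate mutase that opens the branch to phenylalanine and tyrosine, went the other way. It read 792, 683 and 741 at the 12th restreaking and 738, 666, 719.6 and 713 at the first, against 1136, 1166 and 1104 in the wild type. All 7 deletion arrays were below all 3 wild-type arrays. The fall was 1.53-fold at the 12th restreaking (log2 change -0.61, SE 0.060, adjusted p = 4.58e-07 by limma) and 1.59-fold at the first (-0.67, SE 0.056, adjusted p = 8.09e-08). It remained lower under every scaling tried, with log2 changes of -0.73 and -0.78 once the array medians were set equal.

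In the tryptophan branch all 4 measured genes rose. TRP2, the anthranilate synthase component that uses chorismate, read 3526, 3505 and 3431 at the 12th restreaking and 3482, 3913, 3806 and 3705 at the first, against 2391, 2568 and 2505 in the wild type. TRP2 rose 1.40-fold at the 12th restreaking (adjusted p = 3.24e-07 by limma) and 1.49-fold at the first (adjusted p = 2.24e-08). TRP3 encodes its partner subunit, which also carries indole-3-glycerol phosphate synthase. TRP3 read 2674, 2704 and 2761 at the 12th restreaking and 2782, 2785, 2979 and 3011 at the first, against 1799, 1696 and 1783 in the wild type. It rose 1.54-fold (adjusted p = 1.77e-08) at the 12th restreaking and 1.64-fold (adjusted p = 1.85e-09) at the first. For both subunits every deletion array exceeded every wild-type array.

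TRP4, encoding anthranilate phosphoribosyltransferase, read 1213, 1077 and 1133 at the 12th restreaking and 1157, 1131, 1270.3 and 1179 at the first, against 713, 712 and 771 in the wild type. TRP4 rose 1.55-fold at the 12th restreaking (adjusted p = 3.12e-07 by limma) and 1.60-fold at the first (adjusted p = 5.84e-08). TRP5, encoding tryptophan synthase, the last enzyme of the branch, had the smallest rise of the members. It read 5064, 4737 and 4788 at the 12th restreaking and 4918, 5458, 5151 and 5247 at the first, against 4292, 4460.3 and 4167 in the wild type. The deletion arrays were above the wild type. The rise was 1.13-fold at the 12th restreaking (log2 change 0.17, SE 0.045, adjusted p = 0.00262) and 1.20-fold at the first (0.27, SE 0.042, adjusted p = 3.94e-05). With the array medians set equal, the 12th restreaking no longer passed for TRP5 (log2 change 0.060, adjusted p = 0.305).

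**Figure D1:**
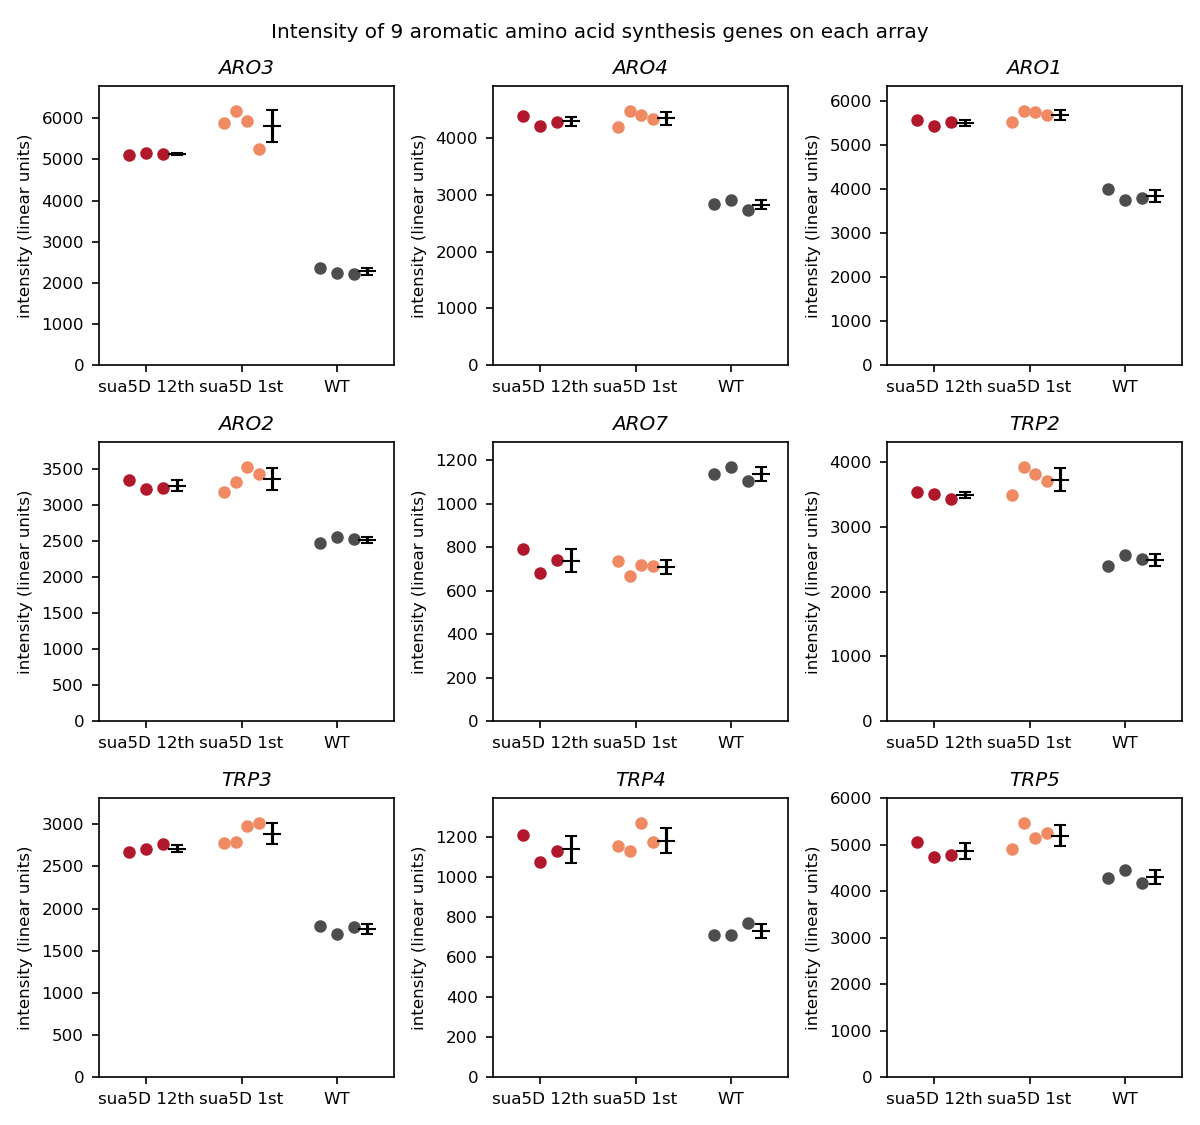
Linear array intensity (vertical axes, from 0) of the 9 measured genes on each array, with 3 arrays at the 12th restreaking, 4 at the first and 3 of the wild type. Points are arrays and the black marks give mean and SD. The deletion arrays lie above the wild type in all panels other than ARO7, where they lie below.

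The arrays of the deletion strains and the wild type did not overlap for any of the 9 measured genes, in either comparison. Over all genes the share without overlap was 79.8% at the 12th restreaking (41.9% higher and 37.8% lower) and 76.7% at the first (40.4% higher and 36.3% lower), so the absence of overlap was common on these arrays. Setting array medians equal lowered the median log2 change of all genes by 0.115 at the 12th restreaking and 0.113 at the first. The members' median was then 0.40 and 0.47, against a median of all genes of -0.08 in both comparisons. After quantile normalization the members' median was higher than as deposited, 0.58 at the 12th restreaking and 0.68 at the first, while the median of all genes was lower, -0.07 in both comparisons.

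The sizes of the changes are set side by side here as log2 ratios of gene pairs within each array. The 4 pairs were picked after their values were seen, so the ratios are a description with no test. The ratio of ARO3 to ARO4 was higher by 0.66 on the log2 scale over the 7 deletion arrays than over the 3 wild-type arrays. At the fork after chorismate, the ratio of TRP2 to ARO7 was higher by 1.18 in the deletion strains. The ratio of TRP5 to TRP2, the last and first enzymes of the tryptophan branch, was lower, with a difference of -0.31. The ratio of TRP2 to TRP3, which encode subunits of the same enzyme, had a difference of -0.13, with deletion and wild-type arrays that overlapped.

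**Figure D2:**
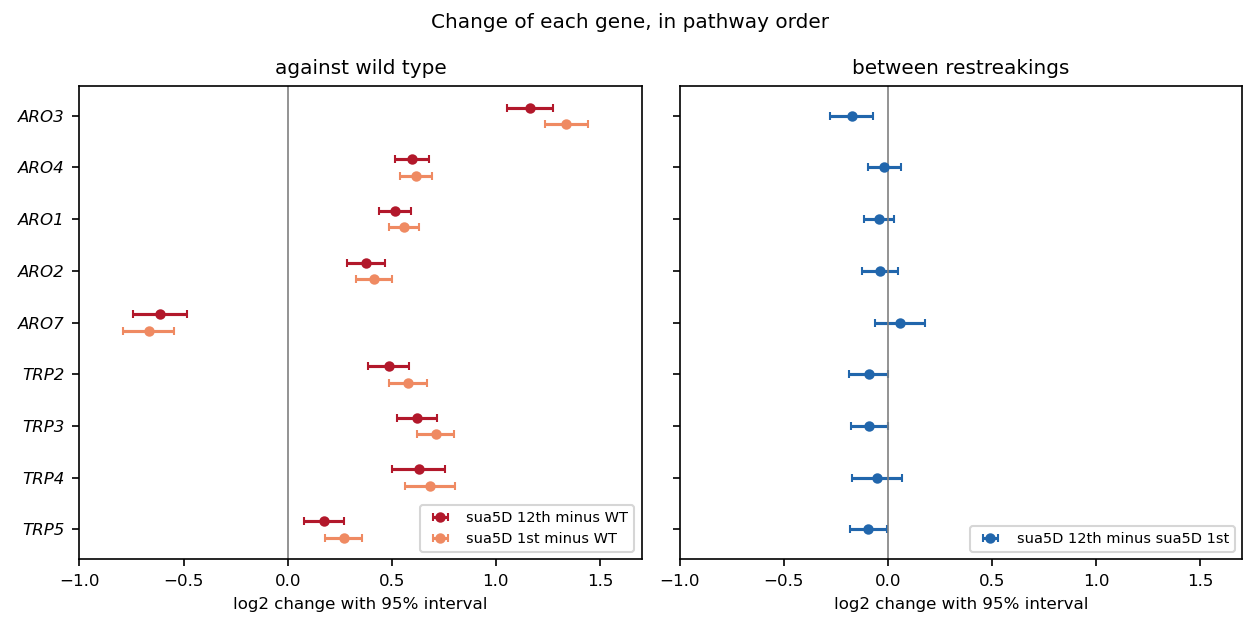
Log2 change of each gene (horizontal axis) with its 95% interval from limma, in pathway order from ARO3 at the top to TRP5. The left panel sets the 12th and the first restreaking against the wild type and the right panel sets the 12th against the first. ARO3 has the highest and ARO7 the lowest change on the left, and on the right all values lie between -0.18 and 0.06.

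Between the restreakings the members moved little. The 12th restreaking was compared with the first. The clones differed in generations, and replicates 3 and 4 of the first also differed from the 12th in LYS2 and MET17. With all 4 clones of the first restreaking, propagation and this marker difference cannot be told apart. In limma's test 1 of 9 members, ARO3, was lower at the 12th and 0 were higher, where 15.9% of all genes were called (9.07% lower and 6.83% higher). At an unadjusted p under 0.05, 4 of 9 members were lower and 0 higher, against 892 lower and 768 higher of all 5449 genes. At the adjusted threshold, the members' share called lower, 11.1%, was near the share over all genes. Their median log2 change was -0.05, against 0.00356 for all genes. Arrays of the restreakings did not overlap for 2 of 9 members, ARO3 and TRP3, both lower at the 12th, against 28.9% of all genes (15.5% lower and 13.4% higher).

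ARO3 was 1.13-fold lower at the 12th than at the first restreaking (log2 change -0.18, SE 0.048, adjusted p = 0.0280 by limma), with the array values given above. When each array was left out the log2 change ran from -0.22 to -0.145, but the call was not always kept. It was lost without replicate 2 or 3 of the first restreaking (adjusted p = 0.0622 and 0.0619) and without replicate 1, 2 or 3 of the 12th (adjusted p = 0.0758, 0.0793 and 0.0927). With replicates 3 and 4 of the first restreaking alone it did not pass (log2 change -0.12, adjusted p = 0.126), and with replicates 1 and 2 alone it did (-0.23, adjusted p = 0.00583). Over all alternatives the adjusted p ran from 0.00502 to 0.126.

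The other members did not pass. TRP2, TRP3 and TRP5 had log2 changes of -0.09 each (adjusted p = 0.160, 0.164 and 0.144), and TRP4 had -0.05 (adjusted p = 0.547). TRP2 passed without replicate 1 of the first restreaking (adjusted p = 0.0468), and TRP3 with replicates 3 and 4 of the first restreaking alone (adjusted p = 0.0489). For ARO1 the 95% interval of the log2 change was -0.12 to 0.03, for ARO2 -0.12 to 0.05 and for ARO4 -0.10 to 0.06. ARO7, the member that was lower than in the wild type, had an interval of -0.06 to 0.18. Under quantile normalization the small negative changes of ARO1 and ARO4 turned positive, again without passing.

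Within the first restreaking the pairs of clones separated a minority of the members, as they did over all genes. ARO2, TRP3 and TRP4 were higher in both replicates 3 and 4 than in replicates 1 and 2, and the other 6 overlapped between those pairs. Over all genes 25.1% were higher in replicates 3 and 4 in this way, against 33.3% of members, and 20.9% were lower, against no member. With either pair alone, 8 members were again higher than the wild type and 1 was lower.

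The phenylalanine and tyrosine branch beyond ARO7 did not move as a block. Of its 4 listed genes, 2 were higher and 0 lower at the 12th restreaking (0 also at an unadjusted p under 0.05 by limma), and 2 were higher and 1 lower at the first. The shares over all genes were 40.9% higher and 36.9% lower at the 12th, and 41.5% and 37.5% at the first. PHA2, encoding prephenate dehydratase of phenylalanine synthesis, read 443, 406 and 401 at the 12th restreaking and 448 to 495 at the first, against 295 to 307 in the wild type. PHA2 had log2 changes of 0.44 at the 12th restreaking (adjusted p = 1.55e-05 by limma) and 0.60 at the first (adjusted p = 3.19e-07). TYR1, encoding prephenate dehydrogenase of tyrosine synthesis, had a log2 change of -0.03 in both comparisons (adjusted p = 0.624 at the 12th and 0.616 at the first). ARO8, the aromatic aminotransferase used in synthesis, rose slightly, with log2 changes of 0.18 and 0.23 (adjusted p = 0.00068 and 3.45e-05).

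ARO9, the aminotransferase used mainly in breakdown, read 1036, 1077 and 915 at the 12th restreaking and 538, 367, 347 and 409.9 at the first, against 1004, 976 and 1113 in the wild type. It was lower at the first restreaking than in the wild type (log2 change -1.30, adjusted p = 1.51e-07 by limma) and higher at the 12th than at the first (1.26, adjusted p = 0.000106). No tested gene had a higher log2 change between restreakings. ARO9 is in the list of the phenylalanine and tyrosine branch as well as in that of breakdown. Of 7 listed breakdown genes, 4 were lower and 1 higher at the 12th restreaking, and 5 lower and 1 higher at the first. The shares over all genes were 36.9% lower and 40.9% higher at the 12th, and 37.5% and 41.5% at the first. ARO10, encoding a phenylpyruvate decarboxylase, had log2 changes of -1.75 and -2.45 (adjusted p = 1.97e-09 and 2.85e-11). Like ARO9, ARO10 was higher at the 12th than at the first restreaking (0.71, adjusted p = 0.00101). In that comparison 2 of the 7 breakdown genes were called higher and 0 lower, against 6.83% and 9.07% of all genes. At an unadjusted p under 0.05, 1 of the 7 was lower.

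Of 8 genes for other uses of chorismate and tryptophan, 3 were higher and 3 lower against the wild type in each comparison. The shares over all genes were 40.9% higher and 36.9% lower at the 12th restreaking, and 41.5% and 37.5% at the first. BNA2, encoding the dioxygenase that opens the tryptophan ring on the way to NAD, read 456, 424 and 458 at the 12th restreaking and 617, 605, 974 and 926 at the first, against 158, 172 and 153 in the wild type. Its log2 changes were 1.38 (adjusted p = 1.42e-06 by limma) and 2.14 (adjusted p = 6.85e-09). The rise was higher in replicates 3 and 4 of the first restreaking than in replicates 1 and 2. ABZ1, which diverts chorismate to 4-aminobenzoate for folate, had log2 changes of -0.44 and -0.56 (adjusted p = 5.61e-06 and 2.44e-07).

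Among 7 genes for uptake and export of aromatic amino acids, 5 were higher and 1 lower at the 12th restreaking, and 5 higher and 2 lower at the first. The shares over all genes were 40.9% higher and 36.9% lower at the 12th, and 41.5% and 37.5% at the first. GAP1, the general amino acid permease, had log2 changes of 1.68 and 2.24 (adjusted p = 1.21e-09 and 2.97e-11 by limma), and AGP1, a broad-range permease, 1.35 and 1.46 (adjusted p = 1.86e-11 and 3.53e-12). TAT1, a tyrosine and tryptophan permease, was lower, with -0.46 and -0.55 (adjusted p = 2.96e-07 and 2.19e-08). TAT2, the high-affinity tryptophan permease, had 0.10 at the 12th restreaking (adjusted p = 0.0698) and 0.14 at the first (adjusted p = 0.0107). AQR1, listed for export, was higher than the wild type at the 12th (0.70, adjusted p = 1.45e-05). At the first it was lower (-0.27, adjusted p = 0.0146), with overlapping arrays. Between restreakings 1 of the 7 was higher at the 12th, AQR1 (0.97, adjusted p = 0.000106), and 1 lower, GAP1 (-0.56, adjusted p = 0.00188). Over all genes 6.83% were higher and 9.07% lower there.

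Aminoacyl-tRNA synthetases load these amino acids onto tRNAs. The list holds cytosolic enzymes and the mitochondrial MSW1, MSF1 and MSY1. None of 7 was higher, 5 were lower at the 12th restreaking and 6 at the first. Over all genes 36.9% were lower and 40.9% higher at the 12th, and 37.5% and 41.5% at the first. In limma at an unadjusted p under 0.05 the counts were the same, 0 higher with 5 and 6 lower. At that threshold 2041 of all 5449 genes were lower and 2257 higher at the 12th, and 2078 and 2284 at the first. FRS2, a subunit of the cytosolic phenylalanyl-tRNA synthetase, had log2 changes of -0.75 and -0.88 (adjusted p = 2.22e-08 and 1.78e-09 by limma). WRS1, the cytosolic tryptophanyl-tRNA synthetase, had -0.32 and -0.29 (adjusted p = 0.000448 and 0.000573).

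Among 8 regulators, 4 were higher and 4 lower at the 12th restreaking, and 4 higher and 3 lower at the first. The shares over all genes were 40.9% higher and 36.9% lower at the 12th, and 41.5% and 37.5% at the first. GCN4 mRNA read 5593, 5363 and 5454 at the 12th restreaking and 5497, 6048, 5828 and 5765 at the first, against 4524, 4634 and 4574 in the wild type. Its log2 changes were 0.26 (adjusted p = 3.10e-05 by limma) and 0.34 (adjusted p = 9.71e-07). GCN4 is controlled mainly at translation, which arrays do not measure. PCL5, a cyclin gene known as a Gcn4 target, had log2 changes of 2.19 and 2.27 (adjusted p = 2.60e-14 and 6.39e-15). GCN2, the kinase that senses uncharged tRNA, had -0.51 and -0.41, and its partners GCN1 and GCN20 had -0.52 and -0.66, and -0.65 and -0.58, in the same order.

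**Figure D3:**
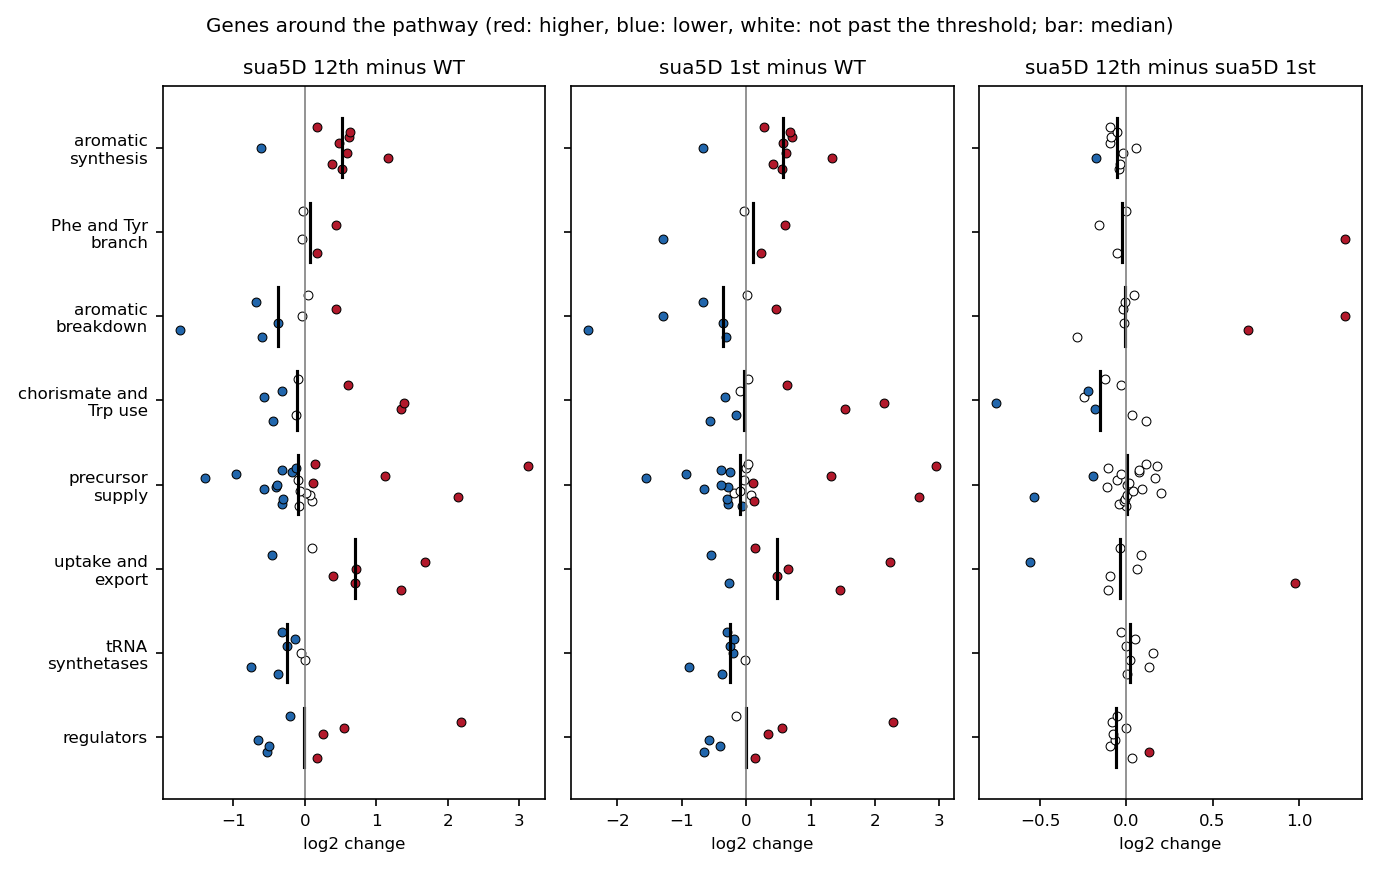
Log2 change (horizontal axes) of the measured genes and of the lists around the pathway, at the 12th restreaking against the wild type, at the first against the wild type, and at the 12th against the first. Each point is a gene, filled red when called higher and blue when called lower, and black bars are list medians. The tRNA synthetase list has no red point in any panel, and ARO9 stands at 1.26 at the right.

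Other amino acid pathways were set beside the aromatic genes as counts and medians, without a test between pathways. Against the wild type, 40.9% of all genes were higher and 36.9% lower at the 12th restreaking, and 41.5% and 37.5% at the first. Of 7 histidine synthesis genes 4 were higher and 1 lower in each comparison with the wild type, with median log2 changes of 0.20 at the 12th restreaking and 0.25 at the first. Of 11 branched-chain genes 7 were higher and 1 lower at the 12th, and 9 higher and 0 lower at the first (0 also at an unadjusted p under 0.05 by limma), with medians of 0.24 and 0.34. Of 8 lysine genes 3 were higher and 3 lower at the 12th, and 6 higher and 0 lower at the first (0 also at an unadjusted p under 0.05). Their medians were 0.14 and 0.48. The 6 measured arginine genes were all higher in both comparisons, with medians of 1.86 and 1.95, above the aromatic medians of 0.52 and 0.58. HIS3, LEU2 and LYS2 are auxotrophic markers of this strain family. HIS3 is counted among the 4 histidine genes higher in each comparison and had the highest change of that list. Its log2 changes were 1.36 at the 12th and 1.34 at the first (adjusted p = 8.98e-12 and 4.16e-12 by limma). LYS2 is counted among the 6 lysine genes higher at the first restreaking (log2 change 3.32, SE 1.42, adjusted p = 0.0451 by limma). Its arrays overlapped with the wild type, where 0 of 3 were above the background limit. LEU2, counted among the branched-chain genes, was dim, with means of 13.2 at the 12th restreaking, 13.6 at the first and 26.7 in the wild type.

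Between the restreakings these pathways differed in their counts. At the 12th against the first, 4 of 8 lysine genes and 2 of 6 arginine genes were lower, as were 2 of 11 branched-chain genes and 0 of 7 histidine genes. Over all genes 9.07% were lower and 6.83% higher. None of the genes of these 4 pathways was called higher. At an unadjusted p under 0.05 by limma, 5 lysine, 4 arginine, 7 branched-chain and 1 histidine genes were lower, and 1 histidine gene was higher. At that threshold 892 of all 5449 genes were lower and 768 higher. The lysine counts moved with the clones of the first restreaking. With replicates 1 and 2 of that group alone, 4 lysine genes were lower at the 12th (median log2 change -0.19), and with replicates 3 and 4 alone, 7 were (median -0.75), against a median of -0.52 with all 4 clones. Against the wild type, the first restreaking had 4 lysine genes higher and 1 lower with replicates 1 and 2 alone. With replicates 3 and 4 alone all 8 were higher, the marker LYS2 included. Over all genes, 1806 to 2264 were higher in this comparison across the alternatives. For branched-chain genes, 1 was lower at the 12th with the first of these pairs and 4 with the other. Across the alternatives, which include these pairs, 188 to 531 of all genes were lower at the 12th. LYS20, a homocitrate synthase gene, read 834, 829.7 and 843 at the 12th restreaking and 1771, 1645, 2762 and 2571 at the first. Its log2 change was -1.34 (adjusted p = 0.000132 by limma), or -1.02 with replicates 1 and 2 and -1.65 with replicates 3 and 4 of the first restreaking alone, against -0.18 for ARO3, the aromatic gene with the lowest value.

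**Figure D4:**
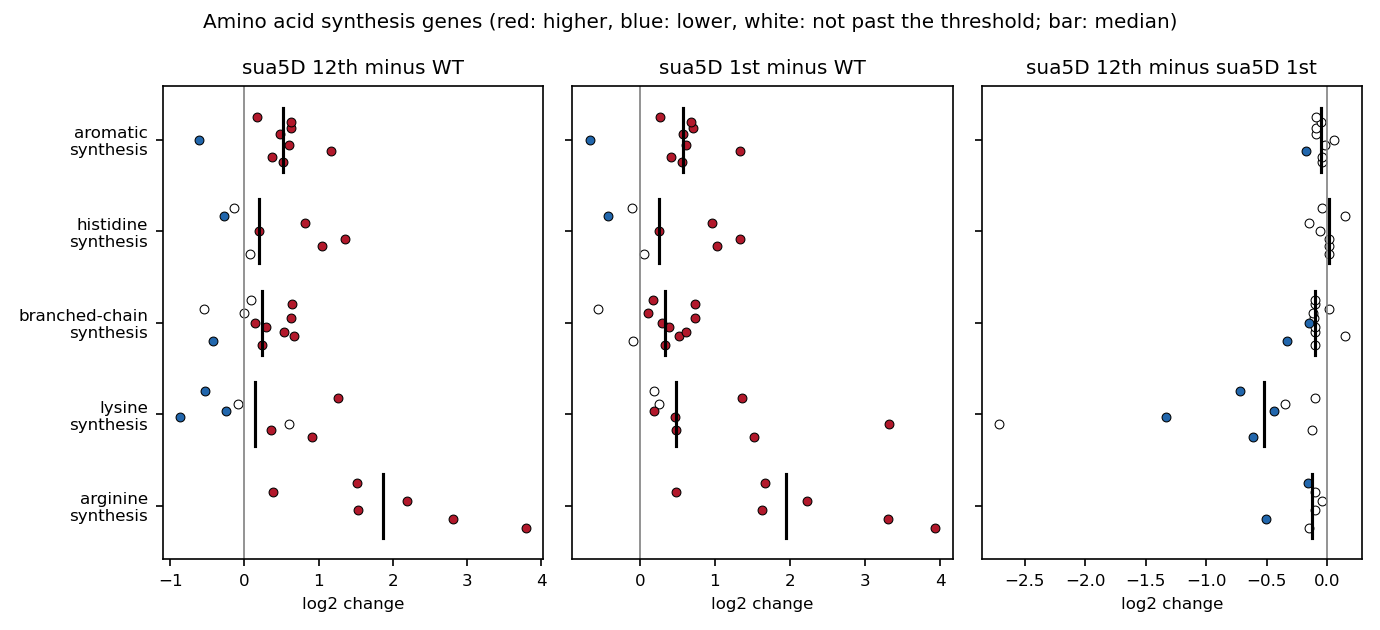
Log2 change (horizontal axes) of genes of 5 amino acid synthesis pathways in the 3 comparisons. Each point is a gene, filled red when called higher, blue when called lower and white when not past the threshold, and black bars are medians. Against the wild type the aromatic medians are 0.52 at the 12th restreaking and 0.58 at the first. ARO3 is the highest aromatic gene there (1.16 and 1.34) and ARO7 the lowest (-0.61 and -0.67). Between restreakings the aromatic genes lie near 0, and several lysine genes lie lower.

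ARO3 had the largest change of the members both against the wild type at the first restreaking and between restreakings. The genes most like it over the 10 arrays, by the root mean square difference of centred log2 values, were LYS5 (0.0516), ODC2 (0.0684) and YAP1801 (0.0704). LYS5, which encodes the enzyme that activates Lys2, had log2 changes of 1.26 at the 12th and 1.36 at the first restreaking. ODC2, a mitochondrial carrier of oxodicarboxylates, had 1.22 and 1.39, and YAP1801, a clathrin assembly factor, had 1.12 and 1.32.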

How the data were processed

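Per the labels, biotin-labelled RNA of 10 cultures was read on Affymetrix arrays. The authors deposited 1 linear intensity for each probe set on each array. How they summarised and scaled it is unstated in the labels. With 2% trimmed from both ends, the mean over probe sets was 500.2 on every array, so the deposited intensity values were scaled per array.

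Probe sets (10928) were named through the platform annotation and matched on gene ID to RefSeq genes of assembly R64. Of them, 5498 matched S. cerevisiae, giving 5449 genes (the brightest probe set where a gene had several). The 1746 other named probe sets, for S. pombe, set the background limit, the percentile 95 on each array. The array medians over tested genes were 602 to 613 in the wild type and 649 to 666 in the deletion strains. On the arrays 97.7% to 99.1% of genes lay above the limit. The number of arrays limits the precision.

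Log2(intensity + 16) was fitted with limma 3.58.1 in R 4.3.3 (all 10 arrays, 1 mean for each group, moderated variances following an intensity trend, two-sided tests, Benjamini-Hochberg adjustment over all genes, threshold 0.05). Folds are on that scale. Groups came from the titles. The design text calls the clones independent, and p-values measure only the spread between these arrays. The fit has no term for replicate numbers.

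The members and lists were chosen with earlier results of these data known. Named genes are all members, genes of the listed neighbours, SUA5, LYS2 and MET17 as checks, and the 3 nearest genes to the member of largest change. ARG5,6 was not matched by name. Alternatives were the pseudocount, scaling, dim-gene filter, probe set summary, variance trend, groups in the fit, each array left out, a replicate block, and pairs of clones of the first restreaking. Gene ratios, and list counts with pairs of clones, were added after the values were seen. No sequence is printed.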

Additional observations from a re-analysis of the deposited data

Results flagged for a closer look

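The change of ARO3 against the wild type differed between the 12th and the first restreaking, by -0.18 on the log2 scale in limma's test of that difference (adjusted p = 0.0280).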

How the results depend on the processing

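Under 21 alternatives, 377 of 378 changes of members against the wild type had the direction and side of the threshold reported, the exception being TRP5 at the 12th restreaking with array medians set equal (log2 change 0.060, adjusted p = 0.305). The count of members lower at the 12th than at the first restreaking, 1 as reported, was 0 without the intensity trend (ARO3, adjusted p = 0.0597) and ran from 0 to 2 when each array was left out. ARO3 lost this call in 7 alternatives, and the cause was not tested. Changes between restreakings turned positive for ARO1 (0.011) and ARO4 (0.017) under quantile normalization and for ARO2 (0.0095) with replicates 1 and 2 of the first restreaking alone, none past the threshold. Over all genes, calls at the 12th against the first restreaking (372 higher and 494 lower) ran from 79 to 390 higher and 188 to 531 lower when each array was left out, and 242 were higher with replicates 3 and 4 of the first restreaking alone. Same-numbered arrays of the 12th and first restreaking had deviations correlating at -0.27 to 0.08 across genes, and other-numbered arrays at -0.19 to 0.31. With 3 same-numbered pairs and overlapping ranges, this cannot settle whether the numbers pair the arrays. With the replicate block, 154 of all genes were higher and 260 lower at the 12th against the first restreaking. The members' counts between restreakings were then 0 higher and 1 lower (ARO3, adjusted p = 0.0190 by limma). Against the wild type the members' counts were again 8 higher and 1 lower in each comparison. Across the alternatives, 1789 to 2267 of all genes were higher than in the wild type at the 12th restreaking, and 1806 to 2264 at the first. Every listed alternative gave a value.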

Other observations

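Genes that supply precursors of the pathway were listed as well, and are described here. Of 21 such genes 5 were higher and 10 lower than in the wild type in each comparison. The shares over all genes were 40.9% higher and 36.9% lower at the 12th restreaking, and 41.5% and 37.5% at the first. TKL2, a minor transketolase gene, read 1274, 1332 and 1129 at the 12th restreaking and 1538, 1392, 802 and 846 at the first, against 122, 123 and 141 in the wild type. At the first restreaking it was lower in replicates 3 and 4 than in replicates 1 and 2. Its log2 changes were 3.13 and 2.95 (adjusted p = 4.74e-09 and 3.41e-09 by limma), while the major gene TKL1 had -0.12 and -0.0085 (adjusted p = 0.0277 and 0.857). GND2, a minor 6-phosphogluconate dehydrogenase gene, had 2.15 and 2.68 (adjusted p = 2.23e-10 and 9.93e-12), against -0.30 in both comparisons for the major gene GND1. In serine synthesis, which feeds tryptophan synthase, SER3 had 1.13 and 1.32 (adjusted p = 8.08e-10 and 7.21e-11) and its close paralog SER33 had -0.97 and -0.94 (adjusted p = 2.50e-09 and 1.45e-09). SER2, encoding phosphoserine phosphatase, had -1.39 and -1.55 (adjusted p = 1.52e-09 and 2.07e-10). Cross-hybridisation between paralogs was not checked.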
